A study of Mus musculus with 16 samples.

Results

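The comparison of 22 with 6 weeks on a Western diet set late against early plaque. The tissue was the aorta of ApoE-/- mice, a strain that develops atherosclerosis because it cannot make apolipoprotein E. It was read over the rows of the deposited gene table that carried a gene name and reached 1 FPKM, a fragment count scaled to transcript length and library depth, in at least 4 of the 8 Western-diet libraries. This rule kept 19902 of 70603 rows, each a genomic locus of build GRCm38, and 66889 of all rows carried a gene name. Of the loci kept, 18527 named 1 gene and 1375 named 2 or more, and 2321 gene names stood on more than 1 of them. The minimum was reached in all 8 libraries at 12758 loci and in exactly 4 at 2322, while 2174 named loci that reached it in exactly 3 were left out. Of the loci kept, 1021 reached it in 0 libraries at 22 weeks and 263 in 0 libraries at 6 weeks; these entered through the group in which they were high.

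Feeding began at 8 weeks of age, with a Western diet or a purified normal diet. Whole-aorta RNA was taken after 6 weeks of feeding, at 14 weeks of age, or after 22 weeks, at 30 weeks of age. Each of the 4 combinations of diet and time had 4 libraries. All groups carried the ApoE deletion, which the genotype field of the labels calls an APOE knockdown, and no wild-type group was present. Nothing in the labels says how many mice stand behind a library, so p-values measure the spread between these samples, which may be technical. The sample codes fall into 1 library series for 22 weeks and another for 6 weeks. Time on the diet, age and library series therefore cannot be told apart here, and no batch term could be fitted. The normal-diet groups carried the same differences in age and library series and shared no library with the Western-diet groups, and their values are given beside those of the Western diet.

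An atherosclerotic plaque forms where lipoproteins are held in the arterial wall and are taken up by macrophages, which load their lysosomes and cytoplasm with cholesterol and become foam cells. Lysosomal acid lipase frees the cholesterol, transporters such as ABCA1 and ABCG1 export it, and autophagy delivers stored lipid droplets to the lysosome. Smooth muscle cells of the wall lose their contractile proteins as plaques age, and some take on matrix, macrophage-like or cartilage-like programmes. Fat lies around the vessel and contributes adipocyte RNA to whole-aorta samples.

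Deposited counts summed to 62536539, 54178621, 69280625 and 67159613 in replicates 1 to 4 at 22 weeks and to 64611515, 70469964, 71076789 and 71582797 at 6 weeks, a difference within the spread (exact two-sided permutation test, p = 0.171, n = 4 each). Ribosomal RNA loci took 6.23%, 4.63%, 12.2% and 5.87% of the counts at 22 weeks and 1.18%, 1.01%, 1.58% and 0.675% at 6 weeks. The 2 sets did not overlap (exact two-sided permutation test, p = 0.0286, the smallest that 4 against 4 allows), and neither did those of the normal diet, at 4.21% to 8.04% and 0.755% to 1.30%. Replicate 3 at 22 weeks stood apart by its ribosomal share. Replicate 1 at 6 weeks stood apart by the summed level of 10 thymocyte genes, at 1149 CPM (deposited counts at a common library depth, scaled by TMM, the trimmed mean of M-values) against 284, 129 and 110.2 CPM in the other 6-week libraries. Counts without these 2 libraries are given beside the main gene lists below.

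The tissue matched its label in the markers it should hold. The 20 contractile smooth muscle genes summed to 7118 to 12396 CPM at 22 weeks and 14066 to 15827 CPM at 6 weeks, the 18 endothelial markers to 2183 to 2910.2 and 1389 to 1843 CPM, and the 17 white adipocyte markers to 6416 to 12639 and 5792 to 8082 CPM. The deletion itself could not be checked, because the Apoe locus (chr7:19696109-19715438) is shared with Tomm40: it read 82.7, 94.4, 97.5 and 75.8 CPM at 22 weeks against 35.2, 42.5, 38.6 and 36.9 CPM at 6 weeks. In bulk RNA, fewer cells of a type and less RNA per cell cannot be told apart.

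At 22 weeks on Western diet, 17 of 20 foam cell genes and 26 of 35 lysosomal enzymes and associated proteins passed as higher than at 6 weeks. So did 11 of 14 measured genes of cholesterol efflux, 12 of 19 of fatty acid synthesis and 9 of 16 of modulated smooth muscle and cartilage, while 8 of 19 contractile smooth muscle genes passed as lower. Of the 9, Col2a1 and Chad reached the FPKM minimum at 22 weeks alone and so had to differ. Among the other 14 members of that list 7 were higher. The foam cell and efflux counts both include Apoe, whose locus is shared with Tomm40. The foam cell receptor Trem2 changed by 3.84 ± 0.50 (adjusted p = 1.78e-05) on the log2 scale (± standard error), the acid protease Ctsd by 1.53 ± 0.12 (adjusted p = 2.49e-07), the fatty acid synthase Fasn by 2.10 ± 0.29 (adjusted p = 2.97e-05) and smooth muscle actin Acta2 by -0.85 ± 0.22 (adjusted p = 0.00469). In the edgeR quasi-likelihood test, adjusted by Benjamini-Hochberg over all 19902 loci, 9751 loci passed an adjusted p of 0.05 on the Western diet (49%), 4783 of them higher (24%) and 4968 lower (25%) at 22 weeks. At least a 2-fold change was seen at 1848 of the higher loci (9.29%) and 1597 of the lower ones (8.02%). The 4 late libraries lay wholly above the 4 early ones at 21.4% of loci and wholly below at 22.7%. With library totals in place of TMM scaling, which moved the median change of all loci from -0.03 to -0.23, 3400 loci were higher and 6742 lower. By limma on log2(FPKM + 0.5), 3325 were higher and 7268 lower. The balance of rises and falls therefore depended on the scaling.

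The change with time followed the base composition of the transcripts on both diets. Across the 14243 loci with a GC value, the Spearman correlation between GC content and the log2 change was 0.69 on the Western diet and 0.68 on the normal diet, described across loci that share libraries. In the tenth of loci with the lowest GC content, up to 40.9%, 73.3% were lower and 1.33% higher at 22 weeks, with a median log2 change of -0.79. In the tenth with the highest, from 57.7%, 77.4% were higher and 1.05% lower, with a median of 1.004. A second fit therefore gave each library its own smooth trend over GC content and transcript length as an offset, a step chosen after the data had been seen; with it the correlation was -0.01. Values of both fits are given below. The difference between the diets in their change with time had a correlation of -0.05. The cause of the trend was not tested.

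**Figure D1:**
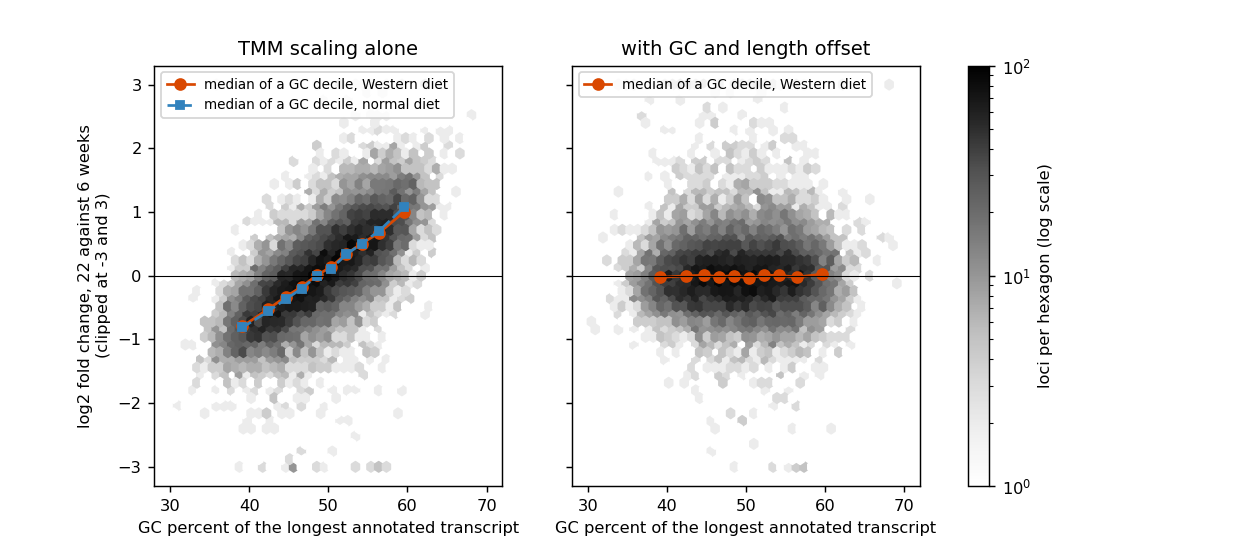
Log2 change between 22 and 6 weeks against the GC percent of the longest annotated transcript at 14243 loci, as hexagons shaded by the number of loci on a log scale, with the medians of 10 GC classes as circles for the Western diet and squares for the normal diet. Medians climb from -0.79 to 1.004 on the Western diet under TMM scaling alone (left) and stay between -0.04 and 0.03 with the GC and length offset (right).

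A pair of genes shows the 2 ends of this trend. Ddx3y, a Y-linked RNA helicase in a locus shared with 2 pseudogenes (chrY:1260771-1286629), had a transcript of 36.1% GC, and Jund, a member of the AP-1 transcription factors (chr8:70698949-70700616), one of 67.1%. The middle 90 coding bases of each are printed from GENCODE M21 on GRCm38, coding positions 943 to 1032 of Ddx3y and 466 to 555 of Jund, with G and C in capitals; they make up 38 and 75 of the 90 bases.
Ddx3y: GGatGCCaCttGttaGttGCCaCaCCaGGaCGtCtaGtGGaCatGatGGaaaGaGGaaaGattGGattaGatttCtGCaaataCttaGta
Jund: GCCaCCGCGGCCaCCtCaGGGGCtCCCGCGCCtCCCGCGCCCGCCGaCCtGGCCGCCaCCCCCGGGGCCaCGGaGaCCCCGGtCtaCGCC
Ddx3y read 44.6, 48.9, 49.2 and 41 CPM at 22 weeks against 106, 101, 119 and 115 CPM at 6 weeks, a log2 change of -1.26 ± 0.10 (adjusted p = 1.94e-07), and -0.36 with the offset. Jund read 346, 308, 444 and 382 CPM at 22 weeks against 72.2, 66.5, 89.4 and 51 CPM at 6 weeks, a log2 change of 2.41 ± 0.20 (adjusted p = 4.74e-07), and 0.60 with the offset. The groups of neither gene overlapped, and the changes had opposite directions. The other measured Y-linked genes also fell at 22 weeks, with log2 changes of -1.27 for Eif2s3y, -1.12 for Uty and -0.57 for Kdm5d. On the normal diet the 4 changes lay between -1.60 and -0.56, so without the offset all 4 were lower at 22 weeks on both diets. The offset covered 3 of the 4, of which 2 passed as lower on each diet. The median of the 3 was then -0.36 on the Western and -0.37 on the normal diet.

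With the GC and length offset, 4650 of 14243 loci passed (32.6%), 2335 higher (16.4%) and 2315 lower (16.3%), against 7842 of the same loci without it (55.1%, 27.4% higher and 27.7% lower). The fit over all 19902 loci passed 7677 of these loci, and 2882 of them passed with the offset in the same direction and 242 in the opposite one. Without the 2 libraries that stood apart, 8312 loci passed, and 3541 with the offset. On the normal diet 10171 loci passed (51.1%), 5135 higher (25.8%) and 5036 lower (25.3%). With the offset 5208 passed there (36.6%), 18.3% of loci higher and 18.2% lower. Of all loci, 3755 were higher and 3689 lower on both diets, 45 passed in opposite directions, 2262 passed on the Western diet alone and 2682 on the normal diet alone. These counts do not test the diets against each other; the test of the difference is given at the end.

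The shares differed by the kind of transcript. Of 10978 protein-coding loci, 34.4% were higher and 22.8% lower at 22 weeks. Of 5649 loci without an annotated transcript, 9.19% were higher and 27.5% lower, and of 479 loci of ribosomal and small structured RNAs, 11.7% and 34.2%. The shares of protein-coding loci, and those of all loci with the offset (16.4% higher and 16.3% lower), are what the counts of the gene lists stand against. Normal-diet counts and medians of the lists are from the fit without the offset, unless said otherwise.

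Most genes of lipid-laden macrophages rose on the Western diet. Of the list of 20 genes that mark foam cells, 17 rose and 0 fell, with a median log2 change of 1.45. The median over all loci was -0.03 and 24% of all loci rose. Over protein-coding loci the median was 0.12 and 34.4% rose. Apoe, the gene deleted in these mice, is counted among the 17, from the locus shared with Tomm40 at which the deletion could not be checked. All 17 had their 4 late libraries above their 4 early ones, as did 21.4% of all loci. This separation is read from the same values as the calls. On the list, 5 members stand on loci shared with another gene. Ctsb, Ctsd, Ctsl and Lipa are also on the list of lysosomal enzymes. Neither the offset nor the libraries that stood apart changed the count when taken singly. With the offset 17 rose and 0 fell, with a median of 1.22, beside 16.4% of all loci higher. These were not the same 17 genes, since Cd63 was -0.17 with it (adjusted p = 0.364, edgeR). Without those libraries 17 rose and 0 fell, with a median of 1.47. Both steps together gave 16 rises and 0 falls, and library totals alone 16 rises and 1 fall. The normal diet gave 13 rises and 4 falls, with a median of 0.83.

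Trem2 (chr17:48346401-48354023), the lipid-sensing receptor of foam cells, read 52.4, 39.7, 54.4 and 42 CPM at 22 weeks against 6.12, 2.29, 2.03 and 2.68 CPM at 6 weeks. Every late library lay above every early one, and replicate 1 was the highest of the early libraries. Its log2 change was 3.84 ± 0.50 (adjusted p = 1.78e-05), 3.53 with the offset, and 3.17 (adjusted p = 7.42e-05) on the normal diet. Cd5l (chr3:87327063-87371073), which encodes the secreted macrophage survival factor AIM, read 249, 145, 306 and 219 CPM at 22 weeks against 25.6, 2.13, 10.7 and 6.86 CPM at 6 weeks. The early libraries varied among themselves by over 10-fold, and the lowest late library was still above the highest early one. The log2 change was 4.34 ± 0.84 (adjusted p = 0.000569), 4.04 with the offset. Among the list members outside the rule for named genes, and chosen after their values were seen, Gpnmb, a lysosomal glycoprotein of foam cells in a locus shared with Malsu1 (chr6:49036546-49098246), read 726, 636, 886 and 682 CPM at 22 weeks against 155, 47.1, 46.7 and 50.6 CPM at 6 weeks. Again replicate 1 led the early libraries without reaching the late ones, and the log2 change was 3.29 ± 0.46 (adjusted p = 3.50e-05).

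Spp1, or osteopontin, in a locus shared with a predicted gene (chr5:104435118-104441050), followed the same order, with 337, 275, 419 and 386 CPM at 22 weeks against 70.5, 16.3, 13.2 and 15.4 CPM at 6 weeks. The log2 change of 3.62 ± 0.69 (adjusted p = 0.000499) was 4.07 with the offset, so this transcript of 43.3% GC rose against the trend of base composition. Itgax, the integrin CD11c, changed by 3.26 and 2.86 with the offset, the galectin Lgals3 by 2.37 and 1.79, the macrophage elastase Mmp12 by 2.37 and 2.98, and Atp6v0d2, a macrophage subunit of the lysosomal proton pump, by 2.56 and 3.11. These 4 were also chosen after their values were seen. Abcg1 (chr17:31057675-31117988), the cholesterol exporter, read 218, 163, 216 and 179.7 CPM at 22 weeks against 50.3, 43.6, 38 and 42.2 CPM at 6 weeks. The early libraries were close to each other and far below the late ones, with a log2 change of 2.16 ± 0.18 (adjusted p = 3.97e-07), 1.75 with the offset and 1.903 on the normal diet. The list members that did not pass without the offset were Fabp4, at -0.61, Lpl, at -0.35, and Cd9, at 0.41. The first 2 are also adipocyte genes.

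**Figure D2:**
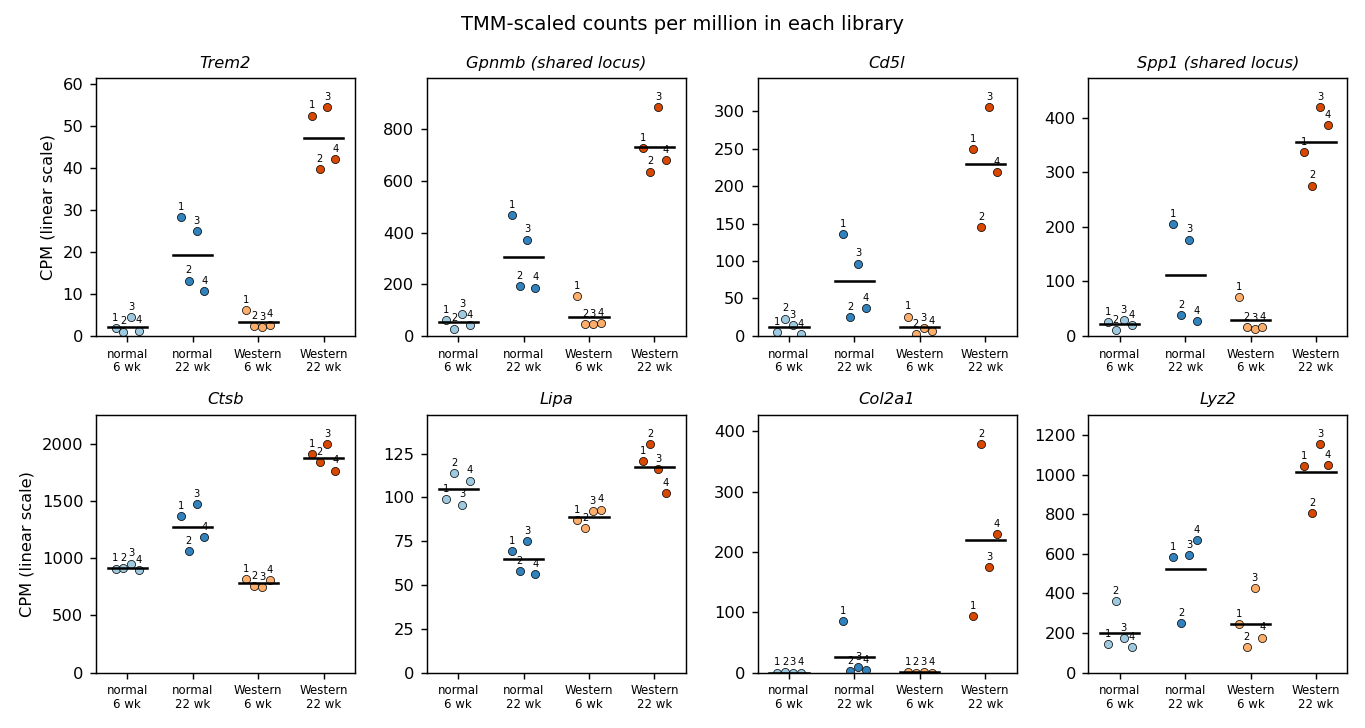
TMM-scaled CPM for 8 genes in each of the 16 libraries, by diet and weeks on the diet; each point is a library with its replicate number, and the line is the group mean. For Trem2, Gpnmb, Cd5l, Spp1, Ctsb, Col2a1 and Lyz2 the 4 libraries of 22 weeks on Western diet lie above every other group, with replicate 1 highest among the 6-week Western-diet libraries for Trem2, Gpnmb, Cd5l and Spp1; for Lipa they lie above the 6-week Western-diet libraries and overlap those of 6 weeks on normal diet.

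Most of the lysosomal enzymes and their helper proteins rose as well, while the list of lysosome membrane and proton pump genes had no common direction. Of 35 proteases, hydrolases and associated proteins, among them the cofactor Psap and the membrane proteins Cln3, Npc1 and Scarb2, 26 rose and 1 fell, with a median log2 change of 0.59; with the offset 21 rose and 0 fell, with a median of 0.46. Without the libraries that stood apart 26 rose and 0 fell. The normal diet gave 15 rises and 5 falls, with a median of 0.27. Over protein-coding loci 34.4% were higher and 22.8% lower. The 1 enzyme that fell on the Western diet was Asah1, the acid ceramidase, at -0.37 and 0.01 with the offset. Of the 23 membrane and V-ATPase members, 5 rose and 3 fell, with a median of -0.07; with the offset 4 rose and 4 fell, and on the normal diet 2 and 9.

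Factors of the TFEB and MITF family are known to bind the E-box core CACGTG in promoters of lysosomal genes. In the RefSeq windows of GRCm38.p6, from 250 bases before to 50 after a gene start, the 6 letters, which read the same on both strands, were found in 7.15% of 32851 windows and at 8.09% of 27025 genes. Of the 58 genes on the 2 lysosome lists, 44 matched a window and 16 of these held it (36.4%); of the 31 that rose, 25 matched and 13 held it (52.0%). A match is a description of the letters and not of binding. The stretches around it in 6 genes of the first list are shown because these members rose; 5 encode enzymes and Cln3 a membrane protein, and each has the core in capitals and runs in the direction of its gene.
Naglu: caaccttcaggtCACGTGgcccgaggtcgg
Gla: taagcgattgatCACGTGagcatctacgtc
Cln3: gcaaccctcaagCACGTGatggaaggctca
Gaa: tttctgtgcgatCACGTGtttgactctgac
Lgmn: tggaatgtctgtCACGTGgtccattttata
Ctsl: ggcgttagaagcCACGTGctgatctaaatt
They lie at chr11:101070009-101070038 on the plus strand for Naglu, chrX:134601215-134601244 on the minus strand for Gla, chr7:126583368-126583397 on the minus strand for Cln3, chr11:119267811-119267840 on the plus strand for Gaa, chr12:102439124-102439153 on the minus strand for Lgmn and chr13:64370739-64370768 on the minus strand for Ctsl. Their log2 changes were 1.83, 1.03, 1.004, 0.96, 0.89 and 0.86, and 0.80, 1.14, 0.67, -0.11, 0.59 and 1.21 with the offset, under which Gaa was no longer higher.

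Among the enzymes, Ctsb (chr14:63122462-63145923), the cysteine protease cathepsin B, read 1911, 1838, 1999.8 and 1765 CPM at 22 weeks against 815, 756, 745 and 806 CPM at 6 weeks. The late libraries lay well above the early ones, which were nearly equal among themselves, and the log2 change was 1.27 ± 0.11 (adjusted p = 5.49e-07), 1.13 with the offset. Ctsd, the aspartic protease cathepsin D, in a locus shared with Ifitm10, read 1705, 1668, 1848 and 1641 CPM at 22 weeks against 570.1, 592, 525 and 683 CPM at 6 weeks, again without overlap, with a log2 change of 1.53 ± 0.12 (adjusted p = 2.49e-07) and 1.09 with the offset. Naglu, which degrades heparan sulfate, read 39.1, 38.7, 62.6 and 51.5 CPM at 22 weeks against 13.5, 14.5, 15 and 11.2 CPM at 6 weeks, a log2 change of 1.83 ± 0.16 (adjusted p = 6.59e-07) that was 0.80 with the offset for this transcript of 59.8% GC. Psap, the precursor of the saposins that help to break down sphingolipids, read 2415, 2226, 2656 and 2281 CPM at 22 weeks against 1067, 1049, 1119.6 and 1071 CPM at 6 weeks, with a log2 change of 1.15 ± 0.12 (adjusted p = 2.22e-06) and 0.57 with the offset.

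Lipa (chr19:34492318-34527474), the acid lipase that frees cholesterol from its esters, was chosen after its values were seen. It read 121, 131, 116 and 103 CPM at 22 weeks against 87, 82.5, 92 and 93.1 CPM at 6 weeks, and the late libraries lay above the early ones by a small margin. Its log2 change was 0.41 ± 0.11 (adjusted p = 0.00549) and 0.83 (adjusted p = 4.63e-05) with the offset, but with library totals alone it was 0.21 and did not pass. On the normal diet Lipa fell, from 105 ± 8.64 CPM at 6 weeks to 64.6 ± 9.12 CPM at 22 weeks (SD, n = 4), a log2 change of -0.69 (adjusted p = 8.12e-05). With the offset this change was -0.21 and did not pass (adjusted p = 0.108, edgeR). Of the membrane proteins, Lamp2 fell by 0.68 on the log2 scale (153, 157, 158 and 136 against 237, 231, 234 and 267 CPM) and was 0.01 with the offset, and Cd63 rose by 0.74 and was -0.17 with it, so neither direction held. Mcoln1, a lysosomal calcium channel, rose by 0.57 and by 0.32 with the offset. Atp6v1d, a pump subunit, fell by 0.86 and was -0.46 (adjusted p = 0.0669) with the offset.

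**Figure D3:**
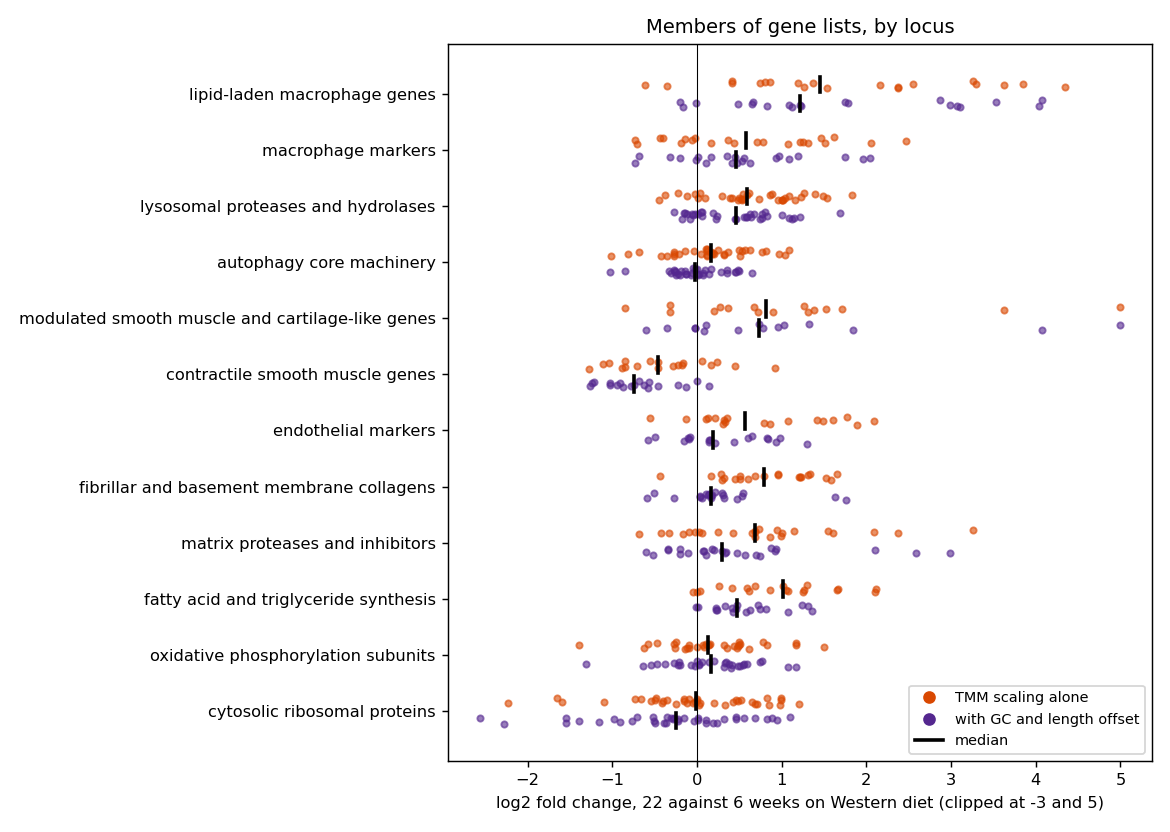
Log2 change between 22 and 6 weeks on Western diet for the measured members of 12 gene lists, 1 point per locus, under TMM scaling alone (orange) and with the GC and length offset (purple); black bars are medians and the axis is clipped at -3 and 5. The foam cell list has medians of 1.45 and 1.22, the contractile smooth muscle list of -0.46 and -0.75, and the collagens move from 0.78 to 0.16 with the offset.

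General macrophage markers were mixed. Of 23 markers, 9 of the 22 measured rose and 2 fell, with a median log2 change of 0.57. With the offset 7 rose and 0 fell, with a median of 0.46, and on the normal diet 9 rose and 2 fell, with a median of 0.74. Without the libraries that stood apart 9 rose and 1 fell. Of protein-coding loci in all, 34.4% were higher without the offset, close to the 9 of 22 markers. With it the 7 of 22 stood beside 16.4% of all loci. Lyz2 (chr10:117277331-117282321), macrophage lysozyme, read 1042, 805, 1155 and 1047 CPM at 22 weeks against 245, 130.5, 426 and 177 CPM at 6 weeks. The lowest late library was above the highest early one, and the log2 change was 2.05 ± 0.40 (adjusted p = 0.00062), 2.04 with the offset. Csf1r, the receptor of the growth factor that macrophages depend on, rose by 1.21 and 0.62, and Cd14, a lipopolysaccharide co-receptor, by 1.46 and 1.09. The members that fell were Cd36, a scavenger receptor also abundant in fat and endothelium, at -0.71 (adjusted p = 0.0177) and 0.01 with the offset, and Cd68, at -0.43 (adjusted p = 0.0158) and -0.32, in a locus that it shares with several other genes. Adgre1, or F4/80, chosen after its values were seen, read 48.4, 33.8, 32.7 and 45 CPM at 22 weeks against 18.3, 17.4, 209 and 20.3 CPM at 6 weeks: replicate 3 at 6 weeks stood far above every other library, and the change did not pass.

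Complement and antigen presentation genes rose in part, on both diets. Of 18 complement components, 10 of the 16 measured rose and 1 fell, with a median log2 change of 0.77. Under the offset 5 rose and 1 fell, with a median of 0.31, and on the normal diet 11 rose and 0 fell, with a median of 0.84. Without the libraries that stood apart 10 rose and 1 fell. The 16 genes stand on 15 loci, of which 9 were higher, beside 34.4% of protein-coding loci. C1qb, a chain of the C1q recognition molecule that macrophages make, read 231, 153, 223 and 178 CPM at 22 weeks against 52.2, 33.3, 89 and 38.6 CPM at 6 weeks, a log2 change of 1.88 ± 0.30 (adjusted p = 0.000123) and 1.11 (adjusted p = 0.0101) with the offset. C1qa, its partner chain, changed by 1.44 ± 0.26 (adjusted p = 0.00037) but by 0.48 (adjusted p = 0.157) with the offset, and replicate 3 at 6 weeks was again above its group, at 63.2 CPM. C4b, which anchors the complement cascade to surfaces, rose by 1.45 and 0.82 with the offset, and by 2.31 on the normal diet. Of 18 antigen presentation genes, 11 of the 16 measured rose and 1 fell, with a median log2 change of 1.08. After the offset 5 rose and 0 fell, with a median of 0.54, and on the normal diet 10 rose and 1 fell, with a median of 1.13. Leaving out the libraries that stood apart gave 9 rises and 1 falls. H2-D1, a class I histocompatibility chain, read 837, 766, 828 and 717 CPM at 22 weeks against 315, 279, 338 and 288 CPM at 6 weeks, a log2 change of 1.37 ± 0.13 (adjusted p = 1.60e-06) and 0.74 with the offset. Tapbp and Tap2, which load peptides onto such chains, rose by 1.27 and 0.99, and by 0.46 and 0.16 (adjusted p = 0.507) with the offset. B2m, the light chain of the same molecules, went the other way at -1.03 (adjusted p = 0.000293), and -0.37 (adjusted p = 0.123) with the offset; its transcript has 41.2% GC against 55.9% for H2-D1.

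Of 31 chemokines and cytokines, 18 were measured; 6 rose and 0 fell, 8 and 0 with the offset, and 9 and 1 on the normal diet. Without the offset the 6 of 18 were close to the 34.4% of protein-coding loci that were higher. With it the 8 of 18 stood beside 16.4% of all loci. Cxcl16, a membrane chemokine that also takes up oxidised lipoprotein, read 35.1, 29.5, 30.8 and 26.2 CPM at 22 weeks against 11.6, 6.38, 14.5 and 5.28 CPM at 6 weeks, a log2 change of 1.69 ± 0.29 (adjusted p = 0.000217) and 1.501 with the offset. Cx3cl1, or fractalkine, rose by 1.79 and 0.93, the monocyte attractant Ccl8 by 1.52 and 1.91, and Tgfb1, the best known fibrogenic cytokine, by 1.35 and 0.95. Interferon-stimulated genes numbered 4 higher and 1 lower among 19 measured (median log2 change 0.25), against 3 and 1 with the offset (0.08) and 3 and 4 on the normal diet (0.06). Of the neutrophil and mast cell markers, 6 of the 8 measured rose and 0 fell, with a median log2 change of 1.41; with the offset 4 rose and 0 fell, with a median of 1.15. The normal diet gave 3 rises and 2 falls, with a median of -0.48, and without the libraries that stood apart 4 rose on the Western diet. The neutrophil gene S100a9 read 2.88, 3.28, 3.81 and 2.16 CPM at 22 weeks against 0.169, 0.255, 1.46 and 0.438 CPM at 6 weeks, a low level that rose by 2.37. Among mast cell genes, the receptor Kit rose by 1.45 and the chymase Cma1 and tryptase Tpsb2 by 1.57 and 1.63; with the offset the values were 1.41, 1.44 and 0.90 (adjusted p = 0.116).

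Few lymphoid genes were measured. Of 18 T and NK cell markers 5 were measured and 1 rose; of 10 thymocyte markers 5 were measured, with a median log2 change of -0.87 (0.54 without replicate 1 at 6 weeks); of 14 B and plasma cell markers 6 were measured and 2 rose, against 0 without the libraries that stood apart. Of those 2, Cd22 reached the FPKM minimum at 22 weeks alone. The T and NK cell markers summed to 197, 43.9, 72.1 and 104 CPM at 22 weeks and 345, 81.5, 40.7 and 22 CPM at 6 weeks. Replicate 1 was the highest of both groups, and the groups overlapped. The DNA replication and mitosis genes moved with the thymocyte sum: they summed to 444 CPM in replicate 1 at 6 weeks against 125, 120.2 and 106 CPM in the other 3, and of 10 measured 0 passed by edgeR, with Mcm3 higher and Pcna lower at an unadjusted p under 0.05, and 1 was lower by limma on log2(FPKM + 0.5). Without replicate 1 at 6 weeks 3 passed as higher at 22 weeks, with a median log2 change of 0.64, and on the normal diet 4 were higher and 0 lower, with a median of 0.95. The part of thymus tissue in these values was not tested. Erythroid genes numbered 5 higher and 0 lower among 5 measured (median log2 change 0.95), against 1 and 0 with the offset (0.73) and 3 and 0 on the normal diet (0.80). The 5 genes stand on 3 loci, and without replicate 2 at 22 weeks 1 of the 5 rose. Beside the lists of this paragraph, 34.4% of protein-coding loci were higher.

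Some cartilage-like genes rose and some contractile smooth muscle genes fell. Of the 23 genes of modulated smooth muscle and cartilage-like cells, 9 of the 16 measured rose and 1 fell, with a median log2 change of 0.81. With the offset 8 rose and 1 fell, with a median of 0.74, and on the normal diet 6 rose and 2 fell, with a median of 0.22. Without the libraries that stood apart 9 rose and 1 fell. Of protein-coding loci in all, 34.4% were higher. Col2a1 and Chad reached the FPKM minimum at 22 weeks alone and so had to differ; among the 14 other members 7 rose and 1 fell. Col2a1 (chr15:97975602-98004695), the collagen of cartilage, read 94, 379.5, 175 and 229.7 CPM at 22 weeks against 0.408, 0, 0.22 and 0.0265 CPM at 6 weeks. It was close to 0 in all early libraries and varied several-fold among the late ones, with replicate 2 the highest. The fitted log2 change was 10.39, and 9.14 with the offset, a size that rests on early levels near 0, and no test is given for it. On the normal diet at 22 weeks it read 84.8, 2.21, 9.21 and 4.71 CPM, high in 1 library of 4. Chad, a cartilage matrix protein, read 13, 15.3, 14.5 and 11.4 CPM at 22 weeks against 2.76, 4.09, 4.42 and 5.27 CPM at 6 weeks, a log2 change of 1.71 and 1.02 with the offset. Comp, a matrix protein of cartilage and tendon, rose by 1.52 but was 0.49 (adjusted p = 0.103) with the offset, and Fn1, or fibronectin, rose by 1.38 and 0.96. Acan, the cartilage proteoglycan aggrecan, chosen after its values were seen, read 41.3, 57.4, 49.9 and 51.4 CPM at 22 weeks against 20.1, 21, 17 and 22.8 CPM at 6 weeks, without overlap, and 32.1 ± 10.7 CPM at 22 weeks and 32.9 ± 2.5 CPM at 6 weeks on the normal diet (SD, n = 4). Its log2 changes were 1.31 ± 0.19 (adjusted p = 6.19e-05) on the Western and -0.03 (adjusted p = 0.894) on the normal diet, and the difference between the diets did not pass (adjusted p = 0.0587).

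Of 20 contractile smooth muscle genes, 1 of the 19 measured rose and 8 fell, with a median log2 change of -0.46; with the offset 0 rose and 12 fell, with a median of -0.75. Of protein-coding loci in all, 22.8% were lower, and of all loci with the offset 16.3%. Without replicate 2 at 22 weeks, the library with the lowest summed level, 2 rose and 7 fell, with a median of -0.29, and without the libraries that stood apart 1 and 8. The normal diet gave 0 rises and 8 falls, with a median of -0.30. Acta2 (chr19:34241090-34255590), smooth muscle actin, read 2389, 1577, 3168 and 2586 CPM at 22 weeks against 4360.1, 4599.5, 4412 and 4202 CPM at 6 weeks. The early libraries were tight and the late ones all below them, with a log2 change of -0.85 ± 0.22 (adjusted p = 0.00469) and -0.95 with the offset. Itga8 (chr2:12106632-12301922), an integrin of contractile smooth muscle, read 719, 468, 1194 and 777 CPM at 22 weeks against 2054, 1769, 2014 and 1790.0 CPM at 6 weeks, a log2 change of -1.27 ± 0.27 (adjusted p = 0.00111) and -0.91 with the offset. Synpo2, an actin-bundling protein, fell by 0.85 and was -0.75 with the offset, and Cald1, or caldesmon, fell by 0.71 and was -0.47 (adjusted p = 0.0531). Des, the muscle filament desmin, was the member that rose, by 0.92, with 0.14 (adjusted p = 0.634) under the offset for a transcript of 56.5% GC. Over the same libraries, the white adipocyte markers summed to 6416, 12639, 9014 and 6869.6 CPM at 22 weeks and 5925, 6609, 5792 and 8082 CPM at 6 weeks, highest in replicate 2 at 22 weeks, where Acta2 was lowest. Their part in the fall was not tested.

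Endothelial markers rose in part. Of 18, 9 rose and 1 fell, with a median log2 change of 0.57. Under the offset 8 rose and 2 fell, with a median of 0.18. On the normal diet 10 rose and 2 fell without the offset (median 0.76), and 6 and 2 with it (0.17). Leaving out the libraries that stood apart gave 9 rises and 1 falls. Of protein-coding loci in all, 34.4% were higher and 22.8% lower, and of all loci with the offset 16.4% and 16.3%. Vwf (chr6:125546774-125686679), the platelet-binding factor of endothelium, read 596, 690.0, 808 and 790.4 CPM at 22 weeks against 254, 176, 274 and 248 CPM at 6 weeks, without overlap, a log2 change of 1.60 ± 0.18 (adjusted p = 6.18e-06) and 0.93 with the offset. Sox18, a transcription factor of vessels, rose by 2.09 and 0.98, its relative Sox17 by 1.77 and 1.29, and the receptor Tie1 by 1.48 and 0.60. Tek, the angiopoietin receptor, fell by 0.56 and was -0.50 with the offset. Pecam1 and Cdh5, which every endothelial cell uses for its junctions, read 0.12 and -0.13 and did not pass. Fibroblast markers numbered 4 higher and 2 lower among 15 measured (median log2 change 0.04), against 3 and 3 with the offset (0.02) and 6 and 1 on the normal diet (0.09).

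**Figure D4:**
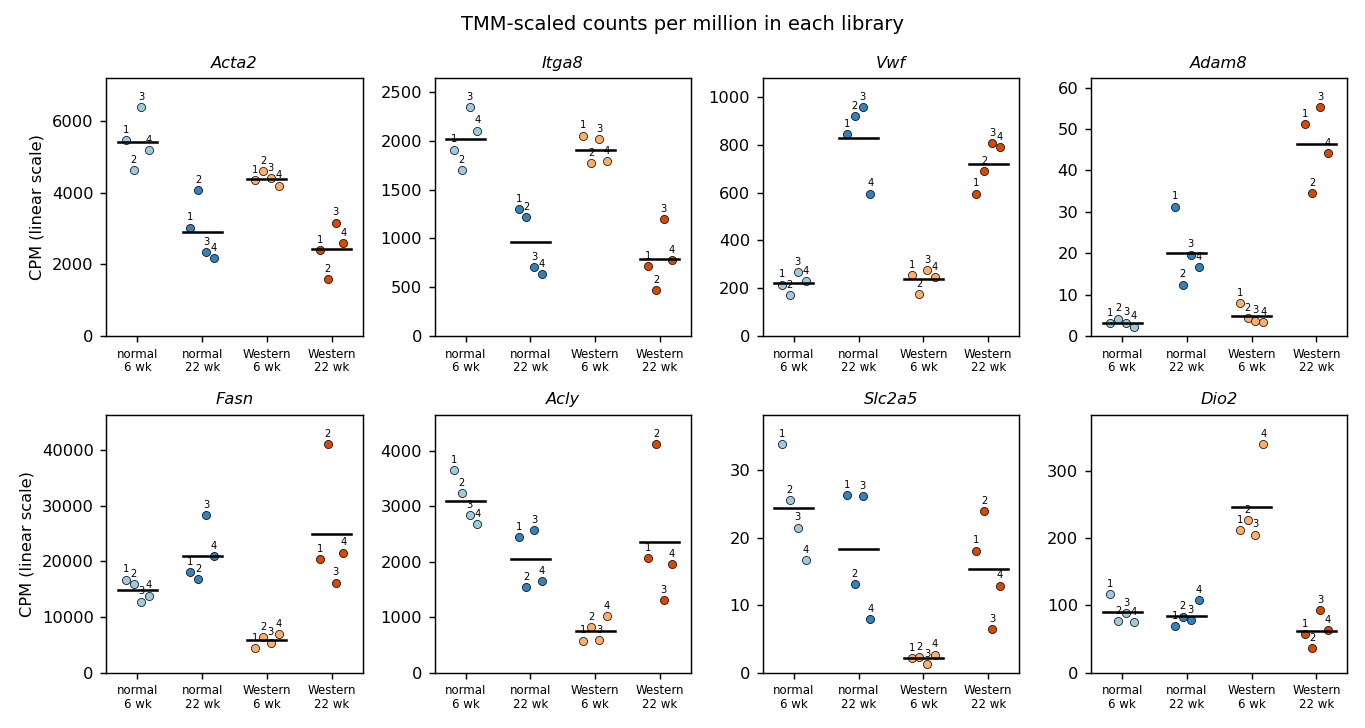
TMM-scaled CPM for 8 genes in each of the 16 libraries, by diet and weeks on the diet; each point is a library with its replicate number, and the line is the group mean. Acta2 and Itga8 are lower and Vwf and Adam8 higher at 22 weeks on both diets, while for Fasn, Acly and Slc2a5 the 4 libraries of 6 weeks on Western diet lie below the other 3 groups and for Dio2 above them.

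Most collagen genes rose on both diets, and most of these calls were lost with the offset. Of 21 fibrillar and basement membrane collagens, 14 rose and 1 fell, with a median log2 change of 0.78. After the offset 5 rose and 2 fell, with a median of 0.16. On the normal diet 16 rose and 0 fell without the offset (median 0.72), and 4 and 2 with it (0.25). Without the libraries that stood apart 13 rose and 1 fell. Col8a2 had to differ, since it reached the FPKM minimum at 22 weeks alone, and 13 of the other 20 rose, beside 34.4% of protein-coding loci. The median GC content of the list was 55.7%. Col4a2, of the basement membrane, read 922, 839.5, 1200.3 and 984 CPM at 22 weeks against 405, 445, 461 and 384 CPM at 6 weeks, a log2 change of 1.22 ± 0.12 (adjusted p = 1.70e-06) that was 0.15 (adjusted p = 0.293) with the offset. Col16a1, a fibril-associated collagen, changed by 1.52 ± 0.15 (adjusted p = 1.77e-06) and by 0.32 (adjusted p = 0.0837) with the offset. The collagen processing and elastic fibre genes numbered 15 higher and 2 lower among 26 measured (median log2 change 0.78), against 8 and 4 with the offset (0.21) and 17 and 1 on the normal diet (0.83). Ltbp2, a microfibril protein, read 564, 530.4, 554 and 526 CPM at 22 weeks against 165, 186, 208 and 148 CPM at 6 weeks, a log2 change of 1.62 ± 0.11 (adjusted p = 1.13e-07) and 0.77 with the offset. Serpinh1, the collagen chaperone HSP47, rose by 1.98 and 1.29, and Fbln2, or fibulin-2, by 1.42 and 0.61.

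Matrix proteases and their inhibitors numbered 13 higher and 2 lower among 25 measured (median log2 change 0.68), against 10 and 1 with the offset (0.29) and 14 and 2 on the normal diet (0.77). Adamts4 reached the FPKM minimum at 22 weeks alone, and 12 of the other 24 were higher. Adam8 (chr7:139978932-139992562), a sheddase of macrophages, read 51.2, 34.5, 55.3 and 44.1 CPM at 22 weeks against 7.96, 4.28, 3.68 and 3.38 CPM at 6 weeks. No late library came near an early one, and the log2 change was 3.26 ± 0.33 (adjusted p = 1.94e-06), 2.58 with the offset. Plau, or urokinase, changed by 2.09 and 2.10, the gelatinase Mmp9 by 1.61 and 0.93, and Mmp2 by 1.01 and 0.34. Of the calcification genes, 5 of 11 measured rose and 1 fell, 4 and 2 with the offset and 2 and 0 on the normal diet; over protein-coding loci 34.4% were higher and 22.8% lower. Mgp (chr6:136872435-136875823), an inhibitor of vascular calcification, read 880.5, 559, 875 and 703 CPM at 22 weeks against 399, 281, 392 and 318 CPM at 6 weeks, a log2 change of 1.12 ± 0.24 (adjusted p = 0.00142) and 1.16 with the offset. TGF-beta and BMP signalling genes numbered 8 higher and 4 lower among 17 measured (median log2 change 0.52), against 4 and 3 with the offset (0.09) and 9 and 4 on the normal diet (0.66). Gsn, or gelsolin, which cuts actin filaments, was among the most abundant loci that passed, at 2059, 2118, 1976 and 1892 CPM at 22 weeks against 1116, 949.6, 1142 and 1118 CPM at 6 weeks; its log2 change of 0.90 ± 0.15 (adjusted p = 0.000191) was 0.12 (adjusted p = 0.607) with the offset.

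Most measured fatty acid synthesis genes rose on the Western diet. Of 20 genes of fatty acid and triglyceride synthesis, 12 of the 19 measured rose and 0 fell, with a median log2 change of 1.01. After the offset 8 rose and 0 fell, with a median of 0.48, while on the normal diet 2 rose and 6 fell, with a median of -0.16. Over protein-coding loci 34.4% were higher, and over all loci with the offset 16.4%. Without replicate 2 at 22 weeks, the library with the most adipocyte RNA, 11 rose and 0 fell, with a median of 0.67, and without the libraries that stood apart 11 and 0. Fasn (chr11:120805846-120824547), the fatty acid synthase, read 20406, 41139, 16186 and 21585 CPM at 22 weeks against 4455, 6411, 5394 and 6887 CPM at 6 weeks. The late libraries were all above the early ones, with replicate 2 the highest, and the log2 change was 2.10 ± 0.29 (adjusted p = 2.97e-05), 1.36 with the offset. On the normal diet Fasn read 18082, 16837, 28253 and 20908 CPM at 22 weeks and 16722, 15949.8, 12771 and 13857 CPM at 6 weeks, so the 6 weeks on Western diet formed the lowest of the 4 groups, without overlap. Srebf1, the sterol-sensing factor that drives these genes, in a locus shared with 2 microRNAs, read 397, 510.4, 462 and 422 CPM at 22 weeks against 125, 145, 139 and 155 CPM at 6 weeks, a log2 change of 1.67 ± 0.14 (adjusted p = 3.66e-07), 0.72 with the offset and 1.54 on the normal diet. Aacs, which feeds ketone bodies into lipid synthesis, rose by 2.12 and 1.31, Dgat2, which makes triglyceride, by 1.29 and 0.62, and Gpd1, which supplies the glycerol backbone, by 1.05 but 0.29 (adjusted p = 0.457) with the offset.

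White adipocyte markers numbered 11 higher and 0 lower among 17 measured (median log2 change 0.87), beside 34.4% of protein-coding loci higher. With the offset 5 were higher and 0 lower (-0.00). On the normal diet 3 were higher and 1 lower (-0.08), and 0 and 5 with the offset (-0.35). Lep reached the FPKM minimum at 22 weeks alone, and 10 of the other 16 were higher. Without replicate 2 at 22 weeks 9 rose and 1 fell, with a median of 0.47. Plin1, which coats lipid droplets, read 572, 985, 700.4 and 565 CPM at 22 weeks against 246, 280.4, 225 and 302 CPM at 6 weeks, a log2 change of 1.42 ± 0.21 (adjusted p = 5.48e-05) and 0.64 with the offset. Adrb3, the adrenergic receptor of fat, rose by 1.51 and 0.88, and Slc2a4, the insulin-regulated glucose transporter, by 1.15 and 0.53 (adjusted p = 0.0738). Adipoq, Car3 and Fabp4, which define adipocytes, did not pass, at -0.32, -0.31 and -0.61. The part of fat carried along with the vessel in the lipid genes was not tested.

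Brown fat genes numbered 2 higher and 4 lower among 14 measured (median log2 change -0.08), against 2 and 6 with the offset (-0.24) and 1 and 10 on the normal diet (-1.39). Dio2 (chr12:90724552-90738438), which activates thyroid hormone, read 57.2, 36.1, 93.4 and 63.7 CPM at 22 weeks against 212, 227, 205 and 341 CPM at 6 weeks, and on the normal diet 68.9, 83.2, 78.5 and 108 CPM at 22 weeks and 117, 77, 88.4 and 75.3 CPM at 6 weeks. Here the 6-week Western-diet group was the highest of the 4, without overlap, and the log2 change on the Western diet was -1.98 ± 0.26 (adjusted p = 1.96e-05), -1.55 with the offset. Ppargc1a, a coactivator of mitochondrial genes, read 15.9, 32, 23.3 and 19.4 CPM at 22 weeks against 212, 70.9, 61.8 and 146 CPM at 6 weeks, a log2 change of -2.44 ± 0.52 (adjusted p = 0.00123) and -1.85 with the offset. Slc27a2, a fatty acid transporter, fell by 1.24 and was -1.65 with the offset. The brown adipocyte list summed to 2743, 4698, 2731 and 2262 CPM at 22 weeks and 2519.8, 3629, 3061 and 4620.3 CPM at 6 weeks, which overlapped. Oxidative phosphorylation subunits numbered 9 higher and 3 lower among 32 measured (median log2 change 0.13), against 5 and 3 with the offset (0.17) and 1 and 21 on the normal diet (-0.77). They numbered 6 higher and 6 lower (median -0.06) without replicate 2 at 22 weeks, 4 higher and 2 lower (median 0.05) without the libraries that stood apart and 4 higher and 5 lower (median -0.07) with library totals alone, so the balance did not hold. Ndufs7 and Uqcrc1, of complexes I and III, rose by 1.501 and 1.17, and by 0.55 and 0.74 with the offset, and Cox6a1, of complex IV, by 1.73 and 0.61. Cox6c, of the same complex, fell by 1.39 and was -1.31 with the offset. Lipolysis and fatty acid oxidation genes numbered 6 higher and 1 lower among 20 measured (median log2 change 0.22), against 1 and 1 with the offset (0.02) and 0 and 11 on the normal diet (-0.76). Without replicate 2 at 22 weeks, the library with the most adipocyte RNA, the balance turned to 3 higher and 5 lower (median -0.14), and without the libraries that stood apart it was 3 higher and 1 lower (median 0.12). The counts of these lists without the offset stand beside 34.4% higher and 22.8% lower over protein-coding loci. Those with it stand beside 16.4% and 16.3% of all loci.

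Most measured cholesterol efflux genes rose, and those of synthesis had no common direction. Of 15 genes of efflux and of the liver X receptors, which sense oxysterols, 11 of the 14 measured rose and 0 fell, with a median log2 change of 0.72. Apoe is counted among the 11, from the locus shared with Tomm40. With the offset 8 rose and 0 fell, with a median of 0.56, and on the normal diet 9 rose and 3 fell, with a median of 0.59. Leaving out the libraries that stood apart gave 11 rises and 0 falls. Over protein-coding loci 34.4% were higher, and over all loci with the offset 16.4%. Pltp, a phospholipid transfer protein, read 227, 199, 185 and 201 CPM at 22 weeks against 61.4, 41, 92.1 and 45.3 CPM at 6 weeks, a log2 change of 1.76 ± 0.22 (adjusted p = 1.16e-05) and 0.996 with the offset. Of 21 genes of synthesis and uptake, 3 rose and 3 fell of 20 measured, 2 and 3 with the offset. Insig1, which holds back sterol synthesis, read 261, 489, 211 and 243 CPM at 22 weeks against 85.8, 93.9, 87.7 and 138 CPM at 6 weeks, a log2 change of 1.57 ± 0.26 (adjusted p = 0.000136) and 1.56 with the offset, and -0.05 on the normal diet. Lss, a synthesis enzyme, rose by 1.15 and 1.14.

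Over protein-coding loci 34.4% were higher and 22.8% lower. Skeletal muscle markers numbered 6 higher and 0 lower among 11 measured (median log2 change 1.83), against 3 and 0 with the offset (1.23) and 1 and 4 on the normal diet (-1.66). They summed to 410.3, 313, 449 and 66.8 CPM at 22 weeks and 105, 74, 65.2 and 21.1 CPM at 6 weeks, and to 46.3 to 107 and 54.3 to 331 CPM on the normal diet, so they were high in 3 late Western-diet libraries and low in replicate 4 of both times. Ckm, the muscle creatine kinase, read 48, 46.2, 72.2 and 5.31 CPM at 22 weeks against 8.7, 5.15, 4.3 and 0.584 CPM at 6 weeks, and Acta1, skeletal actin, 112, 85.3, 69.8 and 11.7 CPM at 22 weeks against 11.7, 8.65, 8.49 and 0.77 CPM at 6 weeks. Liver genes went the other way: 3 of 8 were measured and all 3 fell. Alb, or albumin, read 0, 9.95, 0.0504 and 1.89 CPM at 22 weeks against 60.6, 95.4, 2.84 and 255 CPM at 6 weeks, and Apoa2, an apolipoprotein made in liver, 0.195, 0.336, 0.252 and 0.046 CPM at 22 weeks against 3.75, 4.26, 0.803 and 7.83 CPM at 6 weeks. Alb no longer passed without replicate 1, 3 or 4 at 22 weeks or replicate 4 at 6 weeks, with log2 changes of -4.72, -4.71, -4.97 and -4.17 and adjusted p (edgeR) of 0.0568, 0.0618, 0.0669 and 0.0702. Apoa2 reached the FPKM minimum at 6 weeks alone, so it had to differ to be measured. The log2 changes were -5.14 and -4.34 on the Western and -5.19 and -3.56 on the normal diet. Whether tissue next to the aorta was taken along was not tested. Schwann and nerve genes summed to 479, 272, 198 and 495 and 298, 1256, 119 and 887 CPM, with 1 of 14 lower (without the libraries that stood apart, 4 higher and 1 lower), and cardiac genes to 184, 161, 950.0 and 199 and 203, 299, 220.1 and 251 CPM.

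Autophagy genes, which the title of the study names as its interest, showed no common direction. Of 35 genes of the core machinery, 13 rose and 6 fell, with a median log2 change of 0.16. Under the offset 6 rose and 7 fell, with a median of -0.03. On the normal diet 17 rose and 9 fell without the offset (median 0.25), and 5 and 8 with it (0.01). Of 30 receptors and regulators, 10 rose and 7 fell, with a median of -0.07, against 2 and 6 with the offset and 8 and 10 on the normal diet. Without the libraries that stood apart the core machinery gave 11 and 6 and the receptors and regulators 8 and 9, and with library totals alone 8 and 11 and 8 and 14. Over all protein-coding loci the shares were 34.4% higher and 22.8% lower. Atg2a, which moves lipid to the growing autophagosome, read 90.6, 102, 100.3 and 91.9 CPM at 22 weeks against 46.2, 48.4, 47.5 and 39.8 CPM at 6 weeks, a log2 change of 1.08 ± 0.09 (adjusted p = 2.86e-07) that was 0.07 (adjusted p = 0.543) with the offset for a transcript of 60% GC. Rb1cc1, or FIP200, which starts autophagosome formation, read 37.8, 42.7, 42.9 and 40 CPM at 22 weeks against 75.9, 85.1, 76 and 92.5 CPM at 6 weeks, a log2 change of -1.01 ± 0.10 (adjusted p = 1.31e-06) that was -0.22 (adjusted p = 0.0816) with the offset for a transcript of 39.1% GC. Neither pair of groups overlapped, and neither call held with the offset.

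Atg7, the enzyme that activates the conjugation of ATG8 proteins, read 37.4, 42.7, 42.1 and 32.4 CPM at 22 weeks against 20.6, 18.6, 19.9 and 19.6 CPM at 6 weeks, and its log2 change of 0.97 ± 0.14 (adjusted p = 3.73e-05) was 0.45 (adjusted p = 0.0138) with the offset. Atg9a, the lipid scramblase of the pathway, in a locus shared with Abcb6, rose by 0.76 and was 0.01 with the offset. Among the regulators, Rptor, the mTORC1 subunit raptor, rose by 0.91 and 0.22 (adjusted p = 0.0193) with the offset. Prkaa1, a catalytic subunit of the energy sensor AMPK, read 31.9, 35.9, 34.3 and 32.6 CPM at 22 weeks against 64.9, 79.7, 67.3 and 80.4 CPM at 6 weeks, a log2 change of -1.12 ± 0.10 (adjusted p = 5.08e-07) and -0.50 (adjusted p = 0.00124) with the offset. Fundc1, a receptor for the clearance of mitochondria, fell by 1.29 and was -0.48 (adjusted p = 0.0103) with the offset, and Tax1bp1, a receptor for ubiquitinated cargo, fell by 0.74 and was -0.10 (adjusted p = 0.269).

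Immediate early genes numbered 11 higher and 0 lower among 21 measured (median log2 change 0.59), against 3 and 0 with the offset (0.10) and 17 and 0 on the normal diet (1.26). Over protein-coding loci 34.4% were higher, and over all loci with the offset 16.4%, to which the 3 of 21 were close. The senescence list below stands beside the same shares. Junb, of the AP-1 factors, read 118, 80, 138 and 108 CPM at 22 weeks against 17.4, 26.1, 35.7 and 14.5 CPM at 6 weeks, a log2 change of 2.24 ± 0.30 (adjusted p = 2.63e-05) and 0.97 with the offset; these genes also are known to respond to the handling of tissue, and the part of handling was not tested. Senescence and DNA damage genes numbered 6 higher and 1 lower among 13 measured (median log2 change 0.67), against 3 and 1 with the offset (0.20) and 10 and 1 on the normal diet (0.90). Without Gdf15, 5 of the other 12 were higher. Gdf15, a stress-induced cytokine, read 8.51, 6, 8.7 and 7.44 CPM at 22 weeks against 0.815, 0.59, 0.972 and 0.425 CPM at 6 weeks. The late libraries were all several-fold above the early ones, at a low level, with a log2 change of 3.45 and 2.30 with the offset. No test is given, since the locus reached the FPKM minimum at 22 weeks alone. Igfbp7, a secreted protein of senescent cells and vessels, read 861, 576, 1257 and 889 CPM at 22 weeks against 210.2, 174, 224 and 236 CPM at 6 weeks, a log2 change of 2.08 ± 0.23 (adjusted p = 5.05e-06) and 1.17 with the offset.

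Iron and heme genes numbered 7 higher and 2 lower among 11 measured (median log2 change 0.92), against 6 and 0 with the offset (0.53) and 6 and 2 on the normal diet (0.55). Ftl1, the ferritin light chain, in a locus shared with a predicted gene, read 668, 659, 817 and 685 CPM at 22 weeks against 272, 217, 289 and 266 CPM at 6 weeks, a log2 change of 1.44 ± 0.13 (adjusted p = 7.19e-07) and 0.63 with the offset. Hmox1, the enzyme that breaks down heme, read 34.6, 23.9, 36.7 and 34.7 CPM at 22 weeks against 14.3, 8.22, 11.3 and 7.08 CPM at 6 weeks, with a log2 change of 1.67 ± 0.34 (adjusted p = 0.000815) and 1.24 with the offset. Heat shock chaperones numbered 3 higher and 3 lower among 14 measured (median log2 change 0.03), against 2 and 2 with the offset (-0.15) and 4 and 5 on the normal diet (0.00). Hspb1, a small chaperone also of smooth muscle, rose by 2.13 and 0.97 with the offset. Unfolded protein response genes numbered 8 higher and 4 lower among 20 measured (median log2 change -0.22), against 4 and 3 with the offset (0.05) and 6 and 6 on the normal diet (-0.05). Antioxidant genes numbered 5 higher and 2 lower among 18 measured (median log2 change 0.17), against 5 and 2 with the offset (-0.14) and 3 and 7 on the normal diet (-0.17). Clock genes numbered 4 higher and 1 lower among 17 measured (median log2 change 0.49), against 0 and 2 with the offset (-0.06) and 4 and 4 on the normal diet (0.17), and growth and imprinted genes 4 higher and 3 lower among 12 measured (median log2 change 0.08), against 1 and 1 with the offset (0.01) and 4 and 2 on the normal diet (0.31). Cytosolic ribosomal protein genes numbered 11 higher and 11 lower among 38 measured (median log2 change -0.01), against 8 and 19 with the offset (-0.25) and 16 and 11 on the normal diet (0.10); 15 of the 38 stand on shared loci, and the 14 heat shock genes on 13 loci. The 4 clock genes of 17 were fewer than the 34.4% of protein-coding loci that were higher. The counts of the other lists here without the offset stand beside the same 34.4% higher and 22.8% lower. Those with the offset, among them the 19 of 38 ribosomal protein genes that were lower, stand beside 16.4% higher and 16.3% lower over all loci. Several of these balances turned with a library or the scaling. Without replicate 2 at 22 weeks the antioxidant genes stood at 4 and 4, and without the libraries that stood apart the unfolded protein response genes stood at 5 and 6 and the growth and imprinted genes at 3 and 3. With library totals alone the counts higher and lower were 6 and 10 for the unfolded protein response, 2 and 6 for antioxidant genes, 3 and 3 for growth and imprinted genes, 3 and 4 for interferon-stimulated genes, 2 and 4 for fibroblast markers and 4 and 9 for lysosome membrane and V-ATPase genes.

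Of the 10 largest falls by the rule for named genes, 4 were short RNAs, 5 were loci without an annotated transcript and 1, Apoa2, was a messenger RNA. Vaultrc5, a vault RNA, read 2.05, 2.13, 1.5 and 1.72 CPM at 22 weeks against 146, 96.2, 152 and 205 CPM at 6 weeks, a log2 change of -6.34 ± 0.22 (adjusted p = 1.84e-10) on the Western and -6.57 on the normal diet. Rnu2-10, a U2 spliceosomal RNA, read 71, 70.7, 68.6 and 33.7 CPM at 22 weeks against 739.7, 454, 677 and 1369 CPM at 6 weeks, with log2 changes of -3.73 and -3.96. Rnu1b6, a U1 RNA, and Rny1, a Y RNA, changed by -3.78 and -5.88, and Rny1 reached the FPKM minimum at 6 weeks alone. Scarna2, a guide RNA of Cajal bodies, read 274, 209, 360.1 and 285 CPM at 22 weeks against 52.8, 33.8, 44.5 and 59.4 CPM at 6 weeks, a log2 change of 2.57 ± 0.19 (adjusted p = 1.37e-07), and 2.90 on the normal diet. Rn7sk, which restrains transcription elongation, read 2346, 2123, 3064 and 2675 CPM at 22 weeks against 5990.4, 3169.9, 2749.7 and 5828 CPM at 6 weeks; the groups overlapped, and the log2 change was -0.80 (adjusted p = 0.00919). The levels of short RNAs depend on the size of RNA that a library keeps, which is not given in the sources used here. U1 and U2 RNAs have near-identical copies, so their loci are uncertain.

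Among the loci with the largest rises by the rule, Tcf7l1 (chr6:72727486-72731031) read 12.2, 12.7, 14.3 and 18.8 CPM at 22 weeks and 0 CPM in all 4 early libraries. Among the largest falls, Rdm1 (chr11:101604864-101642001) read 0 CPM in all 4 late libraries and 54.3, 2.67, 64.1 and 44.7 CPM at 6 weeks. Neither locus matches an annotated transcript, and the same holds for those named Ubqln1, Shroom4, Chl1 and Med13l among the rises (6.69, 3.80, 3.58 and 3.37) and for Rock1, Tlcd4 and Gstp1 among the falls (-5.81, -5.43 and -3.75). When all loci of a gene name were summed, Ubqln1 changed by 0.06, Shroom4 by -0.01 and Chl1 by -2.21, so these values describe side loci and not the genes. Replicate 3 at 6 weeks was far the highest for Rock1, at 146 CPM against 4.64, 10 and 15.5 CPM. Without it the log2 change was -3.67. Of the loci in this and the next paragraph, Tcf7l1, Ubqln1, Shroom4 and Med13l reached the FPKM minimum at 22 weeks alone, and Rdm1, Rock1, Tlcd4, Gstp1 and the side locus of Scd1 at 6 weeks alone, so their differences were a condition of being measured. Gstp1 was -8.84 without replicate 1 at 22 weeks, the only late library in which it was above 0.

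A side locus of Scd1 without an annotated transcript (chr19:44350270-44407525) read 0.975, 0.513, 0.672 and 1.24 CPM at 22 weeks against 19.8, 31.2, 6.87 and 42.9 CPM at 6 weeks, a log2 change of -4.87, for which no test is given. The main locus of Scd1 (chr19:44394455-44407879), which encodes the stearoyl-CoA desaturase, read 15567, 33871, 17072 and 20055 CPM at 22 weeks against 14488, 20746, 14037 and 23136 CPM at 6 weeks; the groups overlapped, and its log2 change was 0.26 ± 0.33 (adjusted p = 0.55). Zbed5, a gene derived from a transposase (chr5:129895723-129903623), is annotated and read 76.2, 103, 107 and 76.8 CPM at 22 weeks against 7.4, 4.49, 2.47 and 9.23 CPM at 6 weeks, a log2 change of 3.94 ± 0.40 (adjusted p = 2.27e-06), 3.95 with the offset and 3.77 on the normal diet. The groups lay far apart on both diets.

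The change with time differed between the diets at few loci. The difference of the 2 changes passed at 52 of 19902 loci (0.261%), 43 of them with a more positive change on the Western diet (0.216%) and 9 with a more negative one (0.0452%). With the GC and length offset 55 of 14243 passed (0.386%), 0.323% with a more positive and 0.0632% with a more negative change. Of the 46 with a GC value that passed without it, 44 passed with it. Of the 43, 32 rose on the Western diet, 24 fell on the normal diet, and 26 had a positive change on the former and a negative one on the latter. Slc2a5 is counted among the 43, although on the Western diet its locus reached the FPKM minimum at 22 weeks alone. The changes on the 2 diets share age and library series but no library. The count was not stable: it was 474 by DESeq2, 25 with library totals alone and 0 with the replicate number as a block, and it ran from 4 to 116 when single libraries were left out, as detailed in the closing section. The genes below are therefore given by their values in all 4 groups.

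**Figure D5:**
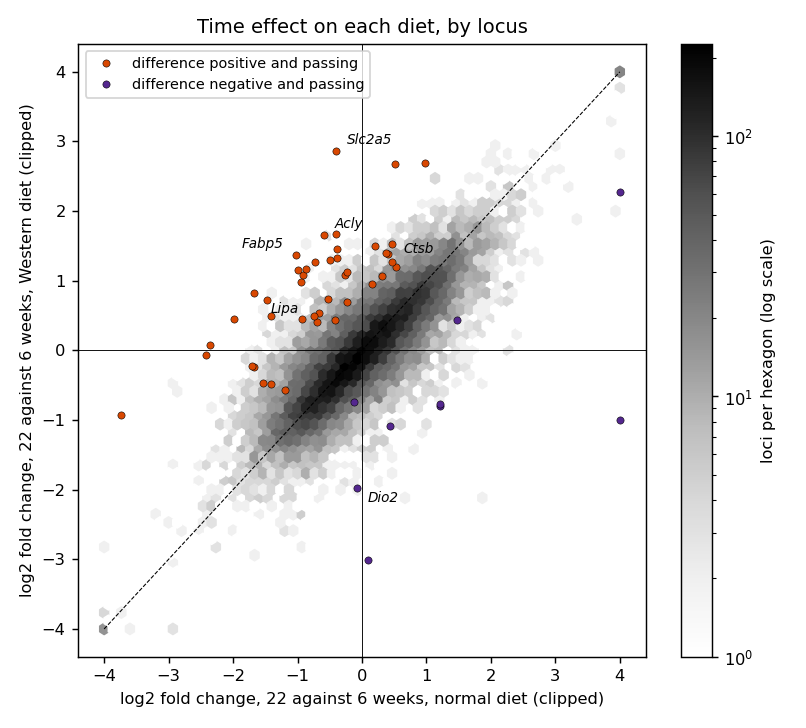
Log2 change between 22 and 6 weeks on normal diet (horizontal) and on Western diet (vertical) at 19902 loci, as hexagons shaded by the number of loci on a log scale and clipped at -4 and 4; the dashed line marks equal changes. The 43 loci with a more positive change on Western diet (orange) lie above the line and the 9 with a more negative one (purple) below it, with Slc2a5, Acly, Fabp5, Ctsb, Lipa and Dio2 named.

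Several of the named loci belong to sugar and lipid metabolism. Slc2a5 (chr4:150119283-150144169), the fructose transporter, read 18.1, 23.9, 6.47 and 12.9 CPM at 22 weeks against 2.17, 2.32, 1.26 and 2.68 CPM at 6 weeks on the Western diet and 26.3, 13.1, 26.2 and 7.93 CPM at 22 weeks against 33.9, 25.6, 21.5 and 16.6 CPM at 6 weeks on the normal diet. The early Western-diet libraries lay below all others. The log2 changes were 2.86 and -0.41, and their difference 3.27; no test is given, since on the Western diet the locus reached the FPKM minimum at 22 weeks alone. Acly (chr11:100476353-100528000), which makes acetyl-CoA for lipid synthesis, read 2058, 4127, 1300.2 and 1957 CPM at 22 weeks against 576, 820.3, 585 and 1016 CPM at 6 weeks on the Western diet and 2449, 1547, 2570.1 and 1649.5 against 3658, 3238, 2833 and 2677 CPM on the normal diet, again with the early Western-diet group lowest, and the difference was 2.25 ± 0.43 (adjusted p = 0.0458). Fabp5 (chr3:10012548-10016607), a fatty acid carrier of macrophages and adipocytes, read 89.6, 97.8, 87.7 and 86.8 CPM at 22 weeks against 40.5, 39.1, 16.6 and 43.6 CPM at 6 weeks and 82.8, 38, 82.6 and 41.1 against 149, 135, 101 and 113 CPM; it rose on the Western diet and fell on the normal diet, with a difference of 2.40 ± 0.41 (adjusted p = 0.0308). Kng2, a kininogen gene, read 40.6, 50.5, 34.2 and 33.5 CPM at 22 weeks against 12.3, 26.6, 19.6 and 30.8 CPM at 6 weeks and 11.6, 8.91, 17.4 and 17.4 against 56.4, 37.3, 48.6 and 33.6 CPM, with a difference of 2.50 ± 0.39 (adjusted p = 0.0258). Its rise on the Western diet, 0.83 (adjusted p = 0.0214), was lost without replicate 2 at 22 weeks (0.695) or replicate 1 (0.637) or 3 (0.78) at 6 weeks, and with library totals alone (0.642).

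Further genes of the same kind, chosen after their values were seen, had the lowest group mean at 6 weeks on Western diet. Thrsp, a lipogenic nuclear protein, read 682, 1406, 627 and 631 CPM at 22 weeks against 307, 396, 372 and 512 CPM at 6 weeks, and 594 ± 72.3 CPM at 22 weeks and 1125 ± 160.1 CPM at 6 weeks on the normal diet (SD, n = 4), with a difference of 1.999 ± 0.34 (adjusted p = 0.0308). Acss2, which makes acetyl-CoA from acetate, read 373, 654, 281 and 303 CPM at 22 weeks against 111, 123, 106 and 166 CPM at 6 weeks, and 195 ± 19.8 CPM at 22 weeks and 259 ± 46.4 CPM at 6 weeks on the normal diet, with a difference of 2.08 ± 0.33 (adjusted p = 0.0258). Pgd, Taldo1 and Tkt, enzymes of the pentose phosphate pathway that supplies reducing power for lipid synthesis, differed by 1.71, 1.37 and 1.79; the locus of Tkt is shared with a microRNA. Pgd read 330.5 ± 135 CPM at 22 weeks and 132 ± 22.6 CPM at 6 weeks on the Western diet and 256 ± 35.6 CPM at 22 weeks and 335 ± 50.8 CPM at 6 weeks on the normal diet. Slc25a10, the mitochondrial dicarboxylate carrier, read 63.3, 82.2, 56.8 and 55.4 CPM at 22 weeks against 7.17, 9.84, 11.1 and 11.7 CPM at 6 weeks and 78.6 ± 13.6 CPM at 22 weeks and 40 ± 5.85 CPM at 6 weeks on the normal diet, with a difference of 1.72 ± 0.25 (adjusted p = 0.0204). In replicate 2 at 22 weeks, which held the most adipocyte RNA, Acly, Thrsp, Acss2, Pgd and Taldo1 were each the highest of their group, and the part of fat in these differences was not tested. Without that library the Western-diet change of Thrsp was 0.706, and 14 loci passed the test of the difference.

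Of the 35 lysosomal enzymes and associated proteins, 3 had a more positive change on the Western diet, against 0.216% of all loci. With the replicate block these 3 had an adjusted p (edgeR) of 0.0726 to 0.0962. Ctsb rose on both, by 1.27 on the Western and 0.47 on the normal diet, and the difference was 0.80 ± 0.15 (adjusted p = 0.0463). Ctsd rose by 1.53 and 0.46, with a difference of 1.07 ± 0.17 (adjusted p = 0.0258). Lipa rose on the Western and fell on the normal diet, with a difference of 1.10 ± 0.15 (adjusted p = 0.0128). With the offset the normal-diet changes of Ctsd and Lipa were 0.09 and -0.21 and did not pass (adjusted p = 0.551 and 0.108, edgeR). The differences with the offset were 0.99 for Ctsd and 1.05 for Lipa. Kit, the mast cell receptor, read 42.3, 32, 30 and 22.6 CPM at 22 weeks against 11.8, 13.4, 6.52 and 14.7 CPM at 6 weeks on the Western diet and 25.6 ± 2.93 CPM at 22 weeks and 33.4 ± 5.6 CPM at 6 weeks on the normal diet, with a difference of 1.84 ± 0.32 (adjusted p = 0.0308).

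Of the 9 loci with a more negative change on the Western diet, Dio2 had a difference of -1.897 ± 0.36 (adjusted p = 0.0427), its early Western-diet libraries lying above all others. Ric8b, a chaperone of G protein subunits, read 56.8, 57.8, 64.5 and 57.2 CPM at 22 weeks against 92.6, 109, 105 and 90.4 CPM at 6 weeks and 70.6 ± 2.23 CPM at 22 weeks and 76.9 ± 3.7 CPM at 6 weeks on the normal diet, with a difference of -0.62 ± 0.11 (adjusted p = 0.0394). Endov, an endonuclease of inosine-containing RNA, rose on both diets, by 0.44 and 1.48, with a difference of -1.04 ± 0.20 (adjusted p = 0.0434); with the offset its Western-diet change was -0.27 (adjusted p = 0.109), and with library totals alone 0.24 (adjusted p = 0.15). The loci named Erich1 and, with a more positive change, Nfrkb have no annotated transcript. Nfrkb read 4.76, 5.39, 4.03 and 4.02 CPM at 22 weeks against 3.59, 3.34, 2.73 and 3.6 CPM at 6 weeks and 3.91 ± 1.27 CPM at 22 weeks and 15.5 ± 2.6 CPM at 6 weeks on the normal diet, with a difference of 2.45 ± 0.30 (adjusted p = 0.00719). Erich1 was at 0 CPM in all 4 libraries of 6 weeks on normal diet, and no fold is given; on the Western diet it read 1.46, 0, 1.19 and 1.14 CPM at 22 weeks against 1.66, 1.49, 2.18 and 2.27 CPM at 6 weeks.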

How the data were processed

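Whole-aorta total RNA was sequenced in 16 libraries, 4 in each combination of diet and weeks. Reads were trimmed with cutadapt 1.9 and checked with FastQC, and the build was GRCm38, per the submitters' processing notes; aligner, counter, strandedness and any removal of ribosomal RNA: not given in the sources used here. In all, the deposited table holds, per the file headers, a count and an FPKM per locus and library. The deposited counts are whole but behave like estimated counts, since low values pile up at 4, and FPKM is 0.0001 where the count is 0. The authors' FPKM chose the loci; the deposited counts were tested as they stand. Columns were matched to samples by title.

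Counts were scaled by TMM and tested with edgeR 4.0.16 (quasi-likelihood test, 4 group means over all 16 libraries, R 4.3.3), with Benjamini-Hochberg adjustment over 19902 loci and a threshold of 0.05. CPM is not corrected for length, so it compares libraries and not genes. Alternatives were DESeq2 1.42.0, limma 3.58.1 on log2(FPKM + 0.5), other scalings and filters, the replicate number as a block, single libraries left out, counts divided by 4, loci of a gene name summed and, chosen after seeing the data, an offset for GC content and length (GENCODE M21), the omission of structured RNA loci and the omission of 2 libraries. The offset covers 14243 loci with a GC value from an annotated transcript.

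Members and gene lists were chosen with earlier results of these data known. Named genes are the 10 largest rises, the 10 largest falls and the 10 most abundant passing loci with groups that do not overlap and a mean of 1 FPKM, up to 4 passing members of each list with the lowest p, and the 5 largest passing differences between the diets in each direction, among loci with 1 official symbol (no clone, Gm or Rik name) and, here too, a mean of 1 FPKM; some genes are not reported here. Members named to complete a short count, and Pecam1, Cdh5, Tek, Adipoq and Car3, were chosen after their values were seen. For a gene with several loci, the one with the highest mean FPKM stands for it in a list. No gene of the mitochondrial genome was measured: its 37 loci are at 0 in every library.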

Additional observations from a re-analysis of the deposited data

Results flagged for a closer look

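In 34 groups of 4 libraries, 1 library lay far from the other 3 (Dixon's criterion). Chance alone flags about 1 in 20 groups, and 272 were examined. Replicate 1 at 6 weeks on Western diet was the high one for the foam cell genes Trem2 (6.12 CPM), Gpnmb (155 CPM), Spp1 (70.5 CPM), Itgax (10.0 CPM), Lgals3 (40.4 CPM), Mmp12 (21.7 CPM) and Atp6v0d2 (12.5 CPM), and for Des (49.4 CPM) and the side locus of Tlcd4 (5.08 CPM). It also had the lowest total of its group, at 64.61 M (mega) counts. Replicate 3 at 6 weeks was high for C1qa (63.2 CPM) and Rock1 (146 CPM) and low for Fabp5 (16.6 CPM). Replicate 4 at 6 weeks was high for Cma1 (4.54 CPM), Dio2 (341 CPM), Insig1 (138 CPM), Lamp2 (267 CPM) and the side locus of Ubqln1 (0.0531 CPM), and replicate 2 at 6 weeks was low for Gsn (949.6 CPM).

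At 22 weeks on Western diet, replicate 2 was high for Adrb3 (452 CPM), Slc2a4 (485.5 CPM), Taldo1 (427 CPM) and Thrsp (1406 CPM), genes that adipocytes use, and low for Cald1 (293 CPM) and Hmox1 (23.9 CPM). Replicate 3 was high for Eif2s3y (25.9 CPM), Ftl1 (817 CPM) and Ric8b (64.5 CPM). Replicate 4 was low for Med13l (5.49 CPM) and Rnu2-10 (33.7 CPM) and high for Rny1 (0.046 CPM) and Tlcd4 (0.123 CPM). Replicate 1 was high for Csf1r (147 CPM) and Gstp1 (0.244 CPM).

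The change with time differed between the diets by the test of the difference (edgeR, log2 scale) for Kng2 (2.50), Nfrkb (2.45), Fabp5 (2.40), Acly (2.25), Acss2 (2.08), Thrsp (1.999), Kit (1.84), Tkt (1.79), Slc25a10 (1.72), Pgd (1.71), Taldo1 (1.37), Lipa (1.10), Ctsd (1.07) and Ctsb (0.80). It was more negative on the Western diet for Dio2 (-1.897), Endov (-1.04) and Ric8b (-0.62). For Slc2a5 the fitted difference was 3.27. No test is given for it, since on the Western diet the locus reached the FPKM minimum at 22 weeks alone. For the Erich1 locus the fitted difference was -10.33, a value that depends on the prior count because 1 group is at 0.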

How the results depend on the processing

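The number of loci that passed on the Western diet stayed within 1.5 times under every alternative except those with the GC and length offset, which tests fewer loci. It was 4650 with the offset (2335 higher, 2315 lower), 4254 with offset and replicate block (2178 and 2076), and 3541 with the offset and without replicate 3 at 22 weeks and replicate 1 at 6 weeks (1756 and 1785). On the normal diet the same settings gave 5208, 4911 and 5279. Of the 9751 loci, 8612 to 8851 still passed with 1 Western-diet library left out, and 0 changed sign.

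The count of loci at which the diets differed was the least stable. It was 25 with library totals alone, 474 by DESeq2, 30, 25 and 27 by limma on log2(FPKM + 0.5), log2(FPKM + 0.1) and log2(FPKM + 1), 26 with no filter, 11 without replicate 3 at 22 weeks and replicate 1 at 6 weeks, and 17 without them and with the offset. Leaving out single libraries gave 4 to 116: the lowest came without replicate 2 of the Western diet or replicate 1 of the normal diet at 6 weeks, and the highest without replicate 4 of the Western diet at 6 weeks. The causes were not tested.

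Replicate numbers did not pair the libraries: the correlations of deviations between 22 and 6 weeks on Western diet were 0.20, -0.01, 0.11 and 0.08, and 2 of the 4 libraries correlated best with their own number. With the replicate block 9346 loci passed on the Western diet. For the difference between the diets 0 passed in edgeR with the block, with or without the offset, while 2384 had an unadjusted p under 0.05, against 2588 without the block.

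Of 153 gene-level changes, some reversed. With the offset, with offset and block, and with the offset and without the 2 libraries, Cd63 was -0.17, -0.17 and -0.12 and Endov -0.27, -0.27 and -0.39. Lamp2 was 0.0067 and 0.0075 in the first and second of these, and Atg9a -0.089 in the last. With the loci of a gene name summed, Chl1 was -2.21 and Shroom4 -0.0102. The call of the Med13l locus, which reached the FPKM minimum at 22 weeks alone, is no test of a change. It was lost without replicate 1 at 22 weeks (3.24) or replicate 1, 2 or 4 at 6 weeks (2.97, 3.55 and 3.01). Counts of 10 or fewer per library, in steps near 4, limit the precision of the least abundant loci.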
